A study of Mus musculus with 4 samples.

Results

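The 9 genes of fibrin formation and removal described here in injured mouse kidney are the fibrinogen chains Fga, Fgb and Fgg, the plasminogen activators Plau and Plat, the urokinase receptor Plaur, the inhibitor Serpine2, and tissue factor F3 with its inhibitor Tfpi. They were chosen by gene name, not by their values, and are 9 of the 54078 features of the deposited table. All 9 passed the filter on low values (an average of 0.5 FPKM or more across libraries), as did 15414 features in all. In all, 4 libraries of kidney RNA were compared, 2 from WT mice (Apela flox/flox littermates without Cre) and 2 from KO mice (the same floxed allele with Cre under the Ksp-cadherin promoter, active in renal tubular epithelium). Apela encodes elabela, a ligand of the apelin receptor. All mice were adult males, the labels give the strain C57BL/6 x 129S4/SvJae, every group had both kidneys clamped for 30 min and was sampled at day 3, and no uninjured kidney was analysed here. Each library pools RNA of 3 mice, so n = 2 counts pools and the spread between single mice cannot be seen.

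Fibrinogen is a plasma protein built from pairs of alpha, beta and gamma chains, which thrombin converts to fibrin. Tissue factor starts clotting when it meets factor VII, and tissue factor pathway inhibitor blocks that step. Plasmin dissolves fibrin, and it is released from plasminogen by urokinase (Plau), bound at the cell surface by Plaur, and by tissue plasminogen activator (Plat). Hepatocytes make most fibrinogen, whose genes belong to the acute-phase response, while urokinase is a product of renal tubules. Injured tubules are also known to transcribe fibrinogen genes.

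The libraries held 16045724 to 16927742 reads assigned to genes. Apela, the targeted gene, had 5.27 and 4.57 FPKM (fragments per kilobase of gene, scaled for depth) in WT, against 0.536 and 0.245 in KO. The pools did not overlap, so the targeted gene matched the labels. The series text mentions adipose tissue, but the libraries carried kidney markers, with 4387 to 9316 FPKM of Kap, an androgen-regulated protein of the proximal tubule, and 788 to 1133 FPKM of Umod of the thick ascending limb. Of 6 adipose markers, Ucp1 had no read in any pool, and the summed FPKM of the 6 was 1.48 and 0.312 in WT, against 8.32 and 3.19 in KO, nearly all of it from Cidec, a lipid droplet protein, with 1.37 and 0.282 in WT, against 7.92 and 2.79 in KO. WT replicate 2 stood apart in its macrophage markers, whose summed FPKM over 8 genes was 457 there, against 184 in the other WT pool and 225 and 216 in KO. The highest of them, Lyz2, a lysozyme, had 57.5 and 164 FPKM in WT, against 89.2 and 104 in KO. As this is bulk RNA, fewer cells of a type and less RNA per cell cannot be told apart.

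None of the 9 genes differed between KO and WT pools at an adjusted p-value under 0.05 (limma on log2(FPKM + 0.5), Benjamini-Hochberg), where the share of all tested genes past that threshold was 0%. Unadjusted p-values were under 0.05 for 0 of the 9 with limma, and for 0 with voom weights on the reads recovered from the FPKM, against 6.32% of all tested genes with limma. Both KO pools lay below both WT pools for 2 of the 9, Plau and F3, and above them for none. Over all tested genes, the pools did not overlap in 37.8%, with the KO pools below in 18.1% and above in 19.7%, so 2 of 9 is near the background. Log2 fold changes are KO minus WT on the log2(FPKM + 0.5) scale, with their standard error (SE). Their median over the 9 was -0.13, against 0.0071 over all tested genes. Without KO replicate 1 it was -0.45, without WT replicate 1 it was -0.38 and without KO replicate 2 it was -0.027, so its size rested on single pools.

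Plau was the highest of the 9, ranked 98 of the 15414 tested genes by mean FPKM, followed by Fgg (547) and Fga (555), and Tfpi was the lowest (12211). Every pool of Plau, at least 237 FPKM, was above every pool of Fgg, at most 133 FPKM. Fgg and Fga did not separate, and neither did Plat from F3, F3 from Plaur, Plaur from Fgb or Fgb from Serpine2, since the ranges over the 4 pools overlapped for each of these neighbours. By the deposited gene lengths the lowest pool of Fga was above the highest of Plat (50.3 against 27.9 FPKM), and the lowest of Serpine2 above the highest of Tfpi (3.02 against 1.61 FPKM). These lengths exceed the longest coding transcript by 2.47-fold for Plat, 3.75-fold for Serpine2 and 2.70-fold for Tfpi, but only 1.01-fold for Plau. Per transcript length Fga and Plat overlapped (58.5 against 68.9 FPKM), Plat separated from F3 (45.1 against 36.3), Serpine2 lay above Fgb (11.31 against 11.03), and Fgb overlapped Tfpi. Per coding length Plat and F3 overlapped (67.9 against 76.8), as did Serpine2 and Fgb (20.9 against 29.1). Plau stayed above every pool of Fgg per transcript and per coding length.

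**Figure D1:**
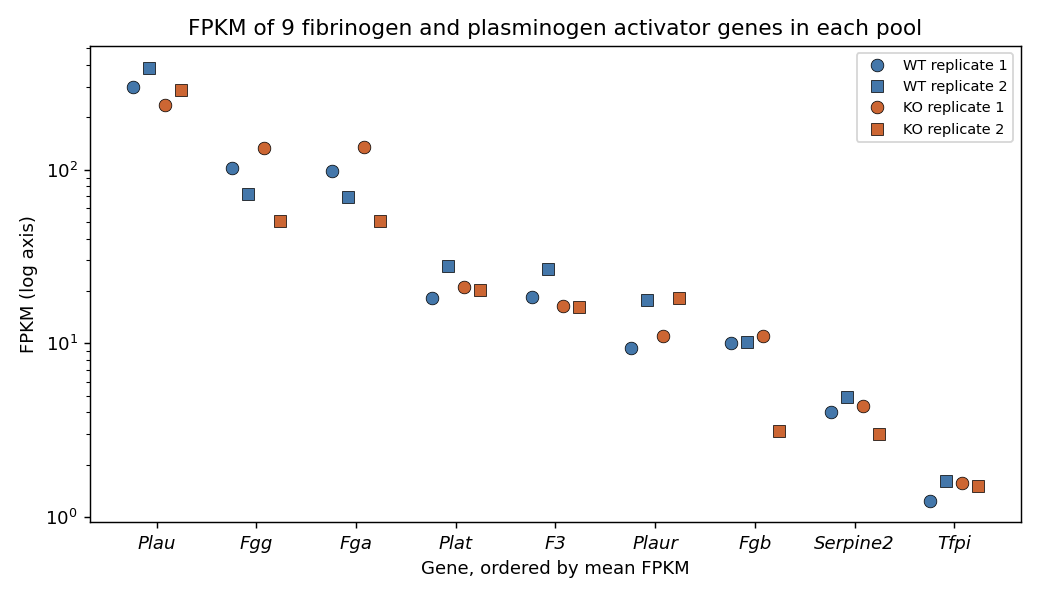
FPKM on a log axis of each of the 9 genes in WT (blue) and KO pools (orange), with replicate 1 as circles and replicate 2 as squares and 1 point per pool. Only Plau and F3 have both orange points below both blue ones, and KO replicate 2 is the lowest of the 4 pools for Fga, Fgb and Fgg.

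The fibrinogen genes lie side by side within 42.14 kb of chromosome 3 (GRCm38). Fgg (ENSMUSG00000033860) is at chr3:83007724-83015049 and Fga (ENSMUSG00000028001) at chr3:83026076-83033627, both on the plus strand, and Fgb (ENSMUSG00000033831) at chr3:83040141-83049863 on the minus strand. The longest coding transcripts in GENCODE M21 have 9 exons for Fgg, 6 for Fga and 8 for Fgb. Because the 3 genes are neighbours and all were lowest in KO replicate 2, the bases before their starts are shown. RefSeq promoter windows (GRCm38.p6) matched 7 of the 9 genes, while Plau and Plat had none. Motifs of factors known to act on fibrinogen promoters, 5 in all, were searched on both strands in the 250 bases before each RefSeq start. They were CTGGGAA (the IL-6 response element), TTCNNNGAA and a form with one more base between TTC and GAA (STAT), TTGCNNAA (C/EBP), and the HNF1 site. Capitals mark the matches of these motifs, and each sequence is written 5′ to 3′ on the strand of its gene. They are Fgg at chr3:83007474-83007723, Fga at chr3:83025903-83026075 and Fgb at chr3:83049864-83050113. The Fga stretch stops at 173 bases, where the gene begins in the deposited table.
Fgg: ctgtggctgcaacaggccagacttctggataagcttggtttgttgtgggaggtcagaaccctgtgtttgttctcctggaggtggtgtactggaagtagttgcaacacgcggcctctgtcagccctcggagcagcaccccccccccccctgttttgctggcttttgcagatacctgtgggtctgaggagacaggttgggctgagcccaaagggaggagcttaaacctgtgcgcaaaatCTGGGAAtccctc
Fga: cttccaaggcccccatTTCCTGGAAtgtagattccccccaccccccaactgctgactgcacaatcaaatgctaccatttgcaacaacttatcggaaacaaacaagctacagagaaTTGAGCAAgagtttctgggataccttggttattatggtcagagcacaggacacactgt
Fgb: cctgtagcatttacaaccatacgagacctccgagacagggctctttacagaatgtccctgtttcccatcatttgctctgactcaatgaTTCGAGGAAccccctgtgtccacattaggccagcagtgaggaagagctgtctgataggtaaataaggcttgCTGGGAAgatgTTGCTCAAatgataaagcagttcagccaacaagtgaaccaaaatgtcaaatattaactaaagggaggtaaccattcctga

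Fgg had the IL-6 response element from base -13 to -7 before its start, and Fgb had it from -91 to -85. It was found in 9.1% of the 32851 promoter windows of this length. The STAT motif with 3 free bases was in Fga from -234 to -226 and in Fgb from -162 to -154 (7.02% of windows), and the form with 4 free bases was in none of the 3 (5.85%). C/EBP letters were in Fga from -135 to -128, on the opposite strand, and in Fgb from -80 to -73 (9.56%). The HNF1 letters, GTTAAT and ATTAA with 1 base of any kind between them, were in none of the 3 windows and in 0.0609% of all windows. These matches describe letters and not bound sites. The absence of exact letters as rare as those of HNF1 does not mean that a looser site is absent.

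Fga, the alpha chain, had 97.9 and 69.8 FPKM in WT, against 136 and 50.3 in KO. Fgg, the gamma chain, had 102 and 72.0 FPKM in WT, against 133 and 50.4 in KO. For both chains the KO pools were the highest and the lowest of the 4, with both WT pools between them. The group means of Fga were 83.9 ± 19.9 (SD, n = 2) for WT, against 92.9 ± 60.3 (SD, n = 2) for KO, and those of Fgg 87.0 ± 21.2 and 91.6 ± 58.3. The log2 fold change was -0.0013 for Fga (SE 0.51, limma adjusted p = 1.00) and -0.065 for Fgg (SE 0.50, limma adjusted p = 0.987). The difference between the KO pools, 2.69-fold for Fga and 2.64-fold for Fgg, was larger than in 96.3% and 96.1% of the tested genes. Between the WT pools it was 1.40-fold for Fga and 1.42-fold for Fgg.

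Fgb, the beta chain, had 9.98 and 10.1 FPKM in WT, against 11.03 and 3.12 in KO. The WT pools were 1.01-fold apart and the KO pools 3.54-fold, a difference larger than in 97.5% of the tested genes. KO replicate 1 was just above both WT pools and KO replicate 2 was far below them, so the groups overlapped. The log2 fold change was -0.71 (SE 0.56, limma adjusted p = 0.840). Leaving out KO replicate 1 gave -1.54 and leaving out KO replicate 2 gave 0.13, so the negative value rested on KO replicate 2.

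Fga and Fgg were close to equal per gene length, with an Fga to Fgg ratio of 0.961 and 0.970 in WT, against 1.02 and 0.998 in KO. Fgb was much lower, making up 4.75% and 6.65% of the summed FPKM of the 3 chains in WT, against 3.95% and 3.00% in KO. The Fga to Fgb ratio was 9.82 and 6.92 in WT, against 12.3 and 16.1 in KO. The size of this ratio depends on the length used, since the deposited length is 3810 nt for Fgb, of which 1446 nt are coding, and 3010 nt for Fga, of which 2370 nt are coding. Per coding length the Fga to Fgb ratio was 4.73 and 3.33 in WT, against 5.92 and 7.77 in KO. The KO pools were above the WT pools in this ratio, and a change of length rescales every pool alike, so it cannot alter their order. This description was chosen after the values were seen and was not tested.

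Fibrinogen reads were 8779 and 6872 in WT, against 12179 and 4365 in KO, so that KO replicate 1 held the most and KO replicate 2 the fewest. The fewest reads of any chain in any pool were the 193 of Fgb in KO replicate 2.

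Within 200 kb of the fibrinogen genes the other genes past the filter were Plrg1, a splicing factor, and Gm30097. Plrg1 had 9.26 and 11.04 FPKM in WT, against 10.1 and 8.44 in KO. Its lowest pool was also KO replicate 2, within a far narrower range. Gm30097 overlaps the first bases of Fgg on the opposite strand, with 0.481 to 0.908 FPKM, and reads of the overlap cannot be told apart without strand.

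The hepatocyte transcripts Ahsg and Alb were at or near 0. Of 10 hepatocyte markers, Ahsg had no read in any pool, and Alb, the most abundant liver transcript, had 0.824 and 0.496 FPKM in WT, against 0.408 and 0.868 in KO. The summed FPKM of the 10 was 104 and 72.6 in WT and 83.5 and 70.3 in KO, led by Ttr at 24.3 to 50.8 FPKM, and 0 of the 7 tested had pools that did not overlap (37.8% over all tested genes). Without Ttr the sum was 54.7 and 30.3 in WT and 59.2 and 19.5 in KO, the same order of pools as the summed fibrinogen FPKM (210 and 152 in WT, 279 and 104 in KO). Serpina1a had 17.6 and 7.08 FPKM in WT, against 27.9 and 7.83 in KO, and Serpina1b had 28.4 and 17.5 in WT, against 22.5 and 5.33 in KO. Fga and Fgg were above Ttr, Serpina1a and Serpina1b in every pool except KO replicate 2, where Ttr was level with them, whereas Fgb was below all 3 in every pool except WT replicate 2, where it was above Serpina1a. The part of hepatocyte transcripts in the fibrinogen levels was not tested.

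Of the 8 injured tubule markers, the KO pools were above the WT pools for 4 and below for 1 (19.7% and 18.1% over all tested genes), and the others overlapped. Havcr1 (the kidney injury molecule) was lowest in KO replicate 2, with 210 and 393 FPKM in WT, against 249 and 105 in KO. Vcam1, an adhesion molecule of injured tubule and endothelium, had 14.6 and 31.0 FPKM in WT and 10.5 and 2.59 in KO. In contrast, Lcn2, a lipocalin of injured tubules, had 133 and 95.2 FPKM in WT, against 249 and 273 in KO, and Krt20, a keratin, had 35.6 and 36.8 in WT, against 60.0 and 61.0 in KO. Krt8 and Krt18 were also highest in KO replicate 2. The summed FPKM of the 8 was 7638 and 8593 in WT and 9779 and 7575 in KO, most of it from Spp1 (osteopontin). Without Spp1 it was 613 and 804 in WT and 818 and 703 in KO. None of the 8 was at 0, and their part in the fibrinogen levels was not tested.

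Likeness to the mean fibrinogen profile was measured as the root mean square difference of log2(FPKM + 0.5), centred on each gene's own mean, over the 4 libraries and 13403 genes averaging 1 FPKM or more. The 5 nearest genes were Ptgds (0.063), Saa1 (0.069), Krt15 (0.076), Gsdmc2 (0.077) and Gm13392 (0.099). The chains themselves came 10th (Fgg, 0.12), 12th (Fga, 0.14) and 67th (Fgb, 0.26), so the mean profile matched none of them best. Saa1, an acute-phase serum amyloid, had 1.26 and 0.985 FPKM in WT, against 1.95 and 0.273 in KO. Ptgds, a prostaglandin D synthase, had 4.41 and 3.21 FPKM in WT, against 5.87 and 1.53 in KO. All 5 genes were far below Fga and Fgg in FPKM, where the 0.5 added before the log narrows a profile. In plain FPKM, Saa1 fell by a larger fold between the KO pools than Fga or Fgg, so the likeness depends on this scale. With 4 libraries many genes can share a profile, and the likeness describes these pools only.

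**Figure D2:**
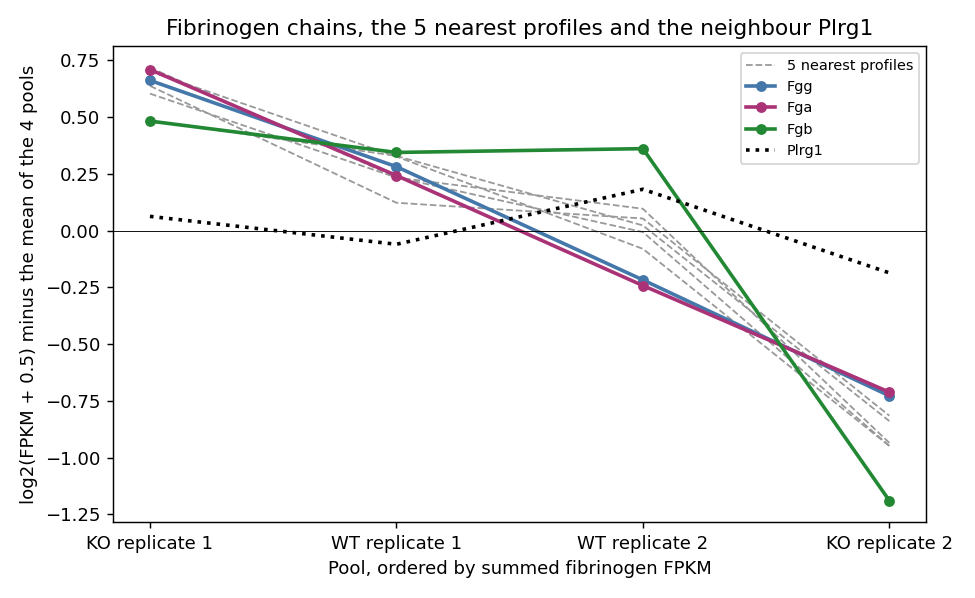
log2(FPKM + 0.5) minus the mean of the 4 pools, for Fga, Fgb and Fgg (solid), the 5 genes with the nearest profile (grey, dashed) and the neighbouring gene Plrg1 (black, dotted), with the pools ordered by summed fibrinogen FPKM. Fga and Fgg run together from KO replicate 1 down to KO replicate 2, Fgb is lowest at KO replicate 2, and Plrg1 stays near 0.

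Plau (ENSMUSG00000021822, chr14:20836660-20843385, plus strand), which encodes urokinase, had 301 and 387 FPKM in WT, against 237 and 288 in KO. The KO pools were below the WT pools, and the nearest pair, 301 and 288 FPKM, was closer together than the pools of either group. The means were 344 ± 60.9 (SD, n = 2) for WT, against 262 ± 36.0 (SD, n = 2) for KO, with a log2 fold change of -0.38 (SE 0.22, limma adjusted p = 0.798). The value ranged from -0.57 to -0.20 with each pool left out in turn. As the pools did not overlap, its direction could not change in these fits. Of 8 proximal tubule markers none was at 0, and the KO pools were below the WT pools for 4 (18.1% over all tested genes) and above for 1 (19.7%). Their summed FPKM was 10466 and 5504 in WT, against 6854 and 10581 in KO, most of it from Kap, and without Kap 1490 and 1118 in WT, against 816 and 1264 in KO. Their part in the Plau value was not tested.

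Plaur (ENSMUSG00000046223, chr7:24462484-24475968, plus strand), the receptor that holds urokinase at the cell surface, had 9.34 and 17.7 FPKM in WT, against 10.99 and 18.3 in KO. Each group held 1 pool near the lower and 1 near the higher level, and the groups overlapped. The log2 fold change was 0.14 (SE 0.39, limma adjusted p = 0.959).

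Plat (ENSMUSG00000031538, chr8:22757727-22782844, plus strand), tissue plasminogen activator, had 18.3 and 27.9 FPKM in WT, against 21.1 and 20.2 in KO. Both KO pools lay between the WT pools, of which replicate 2 was the highest pool, as it was for Plau, with a log2 fold change of -0.13 (SE 0.22, limma adjusted p = 0.931). Urokinase transcripts exceeded those of tissue plasminogen activator per gene length in every pool, by 16.5-fold and 13.9-fold in WT and 11.2-fold and 14.3-fold in KO. Per transcript length these values were 6.73 and 5.67 in WT, against 4.59 and 5.83 in KO. The ratio of Plau to its receptor Plaur was 32.2 and 21.9 in WT, against 21.6 and 15.7 in KO, and per transcript length 18.7 and 12.7 in WT, against 12.5 and 9.14 in KO.

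Serpine2 (ENSMUSG00000026249, chr1:79794197-79861180, minus strand), also called protease nexin-1, inhibits thrombin and urokinase. It had 4.02 and 4.88 FPKM in WT, against 4.34 and 3.02 in KO. The groups overlapped, since KO replicate 1 lay between the WT pools, and the log2 fold change was -0.26 (SE 0.21, limma adjusted p = 0.841). Its direction held with each pool left out, from -0.49 to -0.027.

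F3 (ENSMUSG00000028128, chr3:121723537-121735048, plus strand) encodes tissue factor. It had 18.3 and 26.9 FPKM in WT, against 16.4 and 16.1 in KO. Both KO pools were below both WT pools, and they were 1.02-fold apart where the WT pools were 1.47-fold apart. The means were 22.6 ± 6.04 (SD, n = 2) for WT, against 16.2 ± 0.202 (SD, n = 2) for KO, and the log2 fold change was -0.44 (SE 0.21, unadjusted p = 0.0885, limma adjusted p = 0.797). This was the smallest p-value of the 9 genes. Leaving out WT replicate 2 gave -0.17 and leaving out WT replicate 1 gave -0.71, so its size depended on WT replicate 2. That pool was also the one with the high macrophage markers, of which none of 8 was at 0 and 2 of 8 had both KO pools below both WT pools (18.1% over all tested genes). It was also the highest pool for the summed FPKM of the 8 fibroblast and smooth muscle markers, with 185 and 378 in WT, against 232 and 315 in KO. None of these was at 0, and the KO pools were below for 1. The highest of them, Acta2, peaked in KO replicate 2, with 43.0 and 98.4 FPKM in WT, against 60.6 and 125 in KO. Without Acta2 the sum was 142 and 280 in WT, against 171 and 190 in KO. The part of either list in the F3 value was not tested.

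Tfpi (ENSMUSG00000027082, chr2:84432855-84476775, minus strand), the inhibitor of the tissue factor and factor VII complex, had 1.24 and 1.61 FPKM in WT, against 1.58 and 1.51 in KO. The KO pools lay between the WT pools, with a log2 fold change of 0.093 (SE 0.18, limma adjusted p = 0.939). The F3 to Tfpi ratio was 14.8 and 16.7 in WT, against 10.4 and 10.6 in KO. Per transcript length it was 7.40 and 8.38 in WT, against 5.20 and 5.33 in KO. The groups did not overlap in this ratio, which was chosen after the values were seen and was not tested.

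The promoter of F3 is shown because F3 had the smallest p-value of the 9. None of the 5 motifs searched in the fibrinogen promoters was in its 250 bases before the start, chr3:121723287-121723536 on the plus strand (GRCm38.p6, RefSeq). A further 2 motifs, chosen after the sequence was seen, were TGANTCA (AP-1) and GGAGTTTCC (an NF-kB-like site known from the human gene), and capitals mark them.
F3: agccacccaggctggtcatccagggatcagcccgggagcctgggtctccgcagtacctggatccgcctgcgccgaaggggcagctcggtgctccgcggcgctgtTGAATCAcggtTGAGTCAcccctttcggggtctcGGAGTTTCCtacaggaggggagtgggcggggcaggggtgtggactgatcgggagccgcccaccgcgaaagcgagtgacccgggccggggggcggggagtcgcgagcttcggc

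AP-1 letters lay from base -146 to -140 and from -135 to -129, and were found in 6.75% of promoter windows. The NF-kB-like letters lay from -112 to -104 and were found in 0.262% of windows. In its RefSeq windows Tfpi had CTGGGAA from -76 to -70 on the opposite strand, and the STAT form with 4 free bases from -13 to -4. Plaur had TTGCNNAA from -59 to -52 on the opposite strand. TGANTCA was also in Fgb, from -173 to -167, and in Plaur, from -69 to -63.

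**Figure D3:**
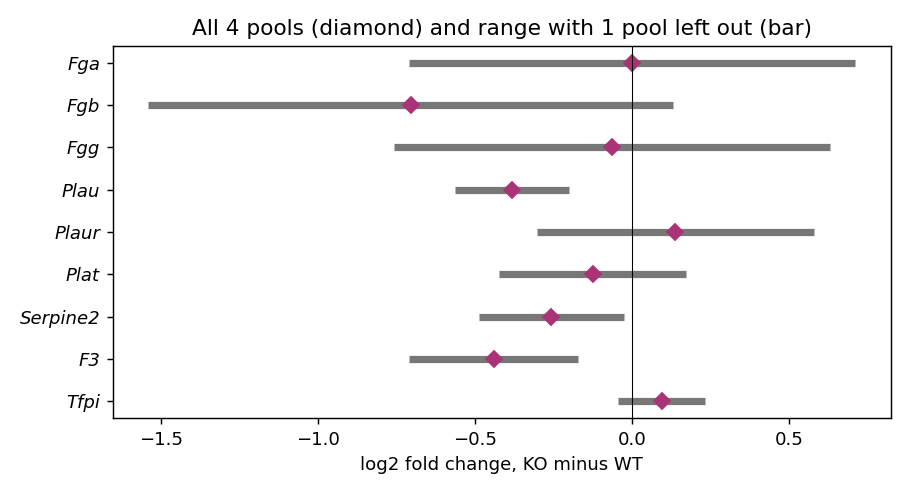
log2 fold change (KO minus WT) of the 9 genes with all 4 pools (diamond) and the range over the fits that left out 1 pool (bar). The bars of Plau, Serpine2 and F3 stay below 0, while those of Fga, Fgb, Fgg, Plaur, Plat and Tfpi cross it. For Plau and F3, whose pools do not overlap, leaving out 1 pool cannot change the sign.

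Other genes of coagulation and fibrinolysis were followed through 7 lists of 63 genes, of which 45 were tested. None had an adjusted p-value under 0.05 (limma, Benjamini-Hochberg, smallest 0.690), while 9 had an unadjusted p under 0.05, 4 higher in KO (3.29% of all tested genes) and 5 lower (3.03%). With voom weights there were also 9, 5 higher and 4 lower, and with the replicate block there were 6, 3 in each direction. The KO pools were above the WT pools for 12 of the 45 (26.7%) and below for 8 (17.8%), against 19.7% above and 18.1% below over all tested genes. The median log2 fold change of the 45 was -0.013, and it turned positive without WT replicate 2 (0.13) or KO replicate 1 (0.025).

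Among plasminogen, its receptors and the clearance of activators, the KO pools were above for 5 of the 10 tested genes and below for 1 (19.7% and 18.1% over all tested genes), with a median log2 fold change of 0.21. That median was 0.33 without WT replicate 2 and 0.15 without KO replicate 1. Plg itself, which encodes plasminogen and is made in liver, had 1 and 0 reads in WT, against 2 and 4 in KO, at or near the limit of 3 reads, so its transcripts were barely detectable. S100a10 and Anxa2 form a plasminogen receptor. S100a10 had 137 and 147 FPKM in WT, against 191 and 179 in KO (log2 fold change 0.38, SE 0.14, limma adjusted p = 0.785), and Anxa2 had 50.01 and 84.0 FPKM in WT, against 55.7 and 70.6 in KO, which overlapped. Eno1, a glycolytic enzyme that also binds plasminogen, had 181 and 169 FPKM in WT, against 256 and 212 in KO. Lrp1, which clears complexes of activators and inhibitors, had 8.69 and 12.9 FPKM in WT, against 13.04 and 15.2 in KO, nearly touching. Hgfac, a protease that activates hepatocyte growth factor, had 3.87 and 3.12 FPKM in WT and 5.08 and 6.45 in KO. The 1 gene below was Lrp2, also among the proximal tubule markers, with 99.9 and 91.0 FPKM in WT, against 70.4 and 76.3 in KO. Its log2 fold change was -0.38 (SE 0.13, unadjusted p = 0.0390, limma adjusted p = 0.785).

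Of the inhibitors of activators, plasmin or thrombin, 3 of 8 listed genes were tested, and the KO pools were below the WT pools for 2 of them (18.1% over all tested genes). Serpinf2, which encodes the main plasmin inhibitor, alpha-2-antiplasmin, had 102 and 76.1 FPKM in WT, against 52.1 and 60.9 in KO. Of the proximal tubule markers, Slc34a1, a phosphate transporter, had 898 and 689 FPKM in WT, against 365 and 609 in KO, and Slc5a2, a glucose transporter, had 114 and 95.3 in WT, against 56.9 and 77.1 in KO, whereas Slc22a6, an organic anion transporter, had 233 and 141 in WT, against 236 and 383 in KO. Their part in the Serpinf2 value was not tested. The log2 fold change was -0.64 (SE 0.19, unadjusted p = 0.0244, limma adjusted p = 0.785). Tfpi2, an inhibitor of plasmin and of tissue factor complexes, had 6.73 and 5.59 FPKM in WT, against 4.41 and 4.09 in KO.

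Of the clotting factors, 6 of 14 were tested, with the KO pools above for 2 and below for 1 (19.7% and 18.1% over all tested genes), and F11 had no read in any pool. The median log2 fold change of the 6 was -0.050, and it turned to 0.13 without KO replicate 2. F13a1, the catalytic chain of the fibrin crosslinking factor XIII, had 1.34 and 1.86 FPKM in WT, against 2.30 and 3.21 in KO (log2 fold change 0.63, SE 0.23, limma adjusted p = 0.785). Kng2, a kininogen, had 109 and 65.8 FPKM in WT and 114 and 115 in KO, nearly touching. Its log2 fold change was 0.44 (SE 0.27), and 0.075 without WT replicate 2. F8, which encodes factor VIII, had 0.905 and 1.19 FPKM in WT, against 0.513 and 0.466 in KO (log2 fold change -0.64, SE 0.23, unadjusted p = 0.0406, limma adjusted p = 0.785).

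All 5 genes of the list of thrombomodulin, the protein C pathway and the protein Z-linked inhibitor Serpina10 were tested. The KO pools were below for 1, Serpina10, a share near the 18.1% of all tested genes. This gene encodes the protein Z-dependent inhibitor of factor X, and had 15.2 and 22.4 FPKM in WT, against 11.3 and 1.76 in KO (log2 fold change -1.87, SE 0.81, limma adjusted p = 0.797). It was -0.68 without KO replicate 2. Thbd, thrombomodulin, had 13.6 and 16.5 FPKM in WT and 15.3 and 19.0 in KO, and Procr, the endothelial protein C receptor, had 1.75 and 2.06 in WT and 1.44 and 3.18 in KO. Both overlapped between the groups.

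F2r, which encodes the thrombin receptor PAR1, had the smallest p-value among the 45 genes. It had 59.7 and 63.5 FPKM in WT, against 95.1 and 125 in KO. Both KO pools were well above the WT pools, and the log2 fold change was 0.82 (SE 0.18, unadjusted p = 0.00711, limma adjusted p = 0.690), between 0.62 and 1.02 with each pool left out. Of 9 endothelial markers none was at 0, and the KO pools were above the WT pools for 5, against 19.7% of all tested genes. Their summed FPKM was 172 and 197 in WT, against 243 and 252 in KO. Much of it came from Plvap, a protein of fenestrated endothelium, with 103 and 110 FPKM in WT, against 161 and 152 in KO. Without Plvap the sums overlapped, at 68.8 and 86.8 in WT, against 81.9 and 100.2 in KO. No endothelial marker passed the adjusted threshold, 1 had an unadjusted p under 0.05 (Plvap, limma), and their part in the F2r value was not tested.

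Of the fibrinogen and fibrin receptors, 9 of 11 genes were tested, 8 of them overlapped, and the KO pools were above for 1, Itgb3 (19.7% over all tested genes). This gene, the beta chain of a fibrinogen-binding integrin, had 1.58 and 1.26 FPKM in WT, against 1.93 and 2.88 in KO.

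In the list of acute-phase signals, 9 of 10 genes were tested and the KO pools were above for 3 and below for 3 (19.7% and 18.1% over all tested genes). Il6 had 1 to 3 reads in each pool. Il6st, the shared receptor chain of the IL-6 family, had 23.4 and 30.7 FPKM in WT, against 19.2 and 19.4 in KO, and Osmr, the oncostatin M receptor, had 3.41 and 5.29 in WT and 3.13 and 2.54 in KO. Cebpb, a factor of acute-phase promoters, had 43.6 and 47.5 FPKM in WT and 78.4 and 49.5 in KO, nearly touching. Its log2 fold change was 0.45 (SE 0.25), and 0.12 without KO replicate 1.

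**Figure D4:**
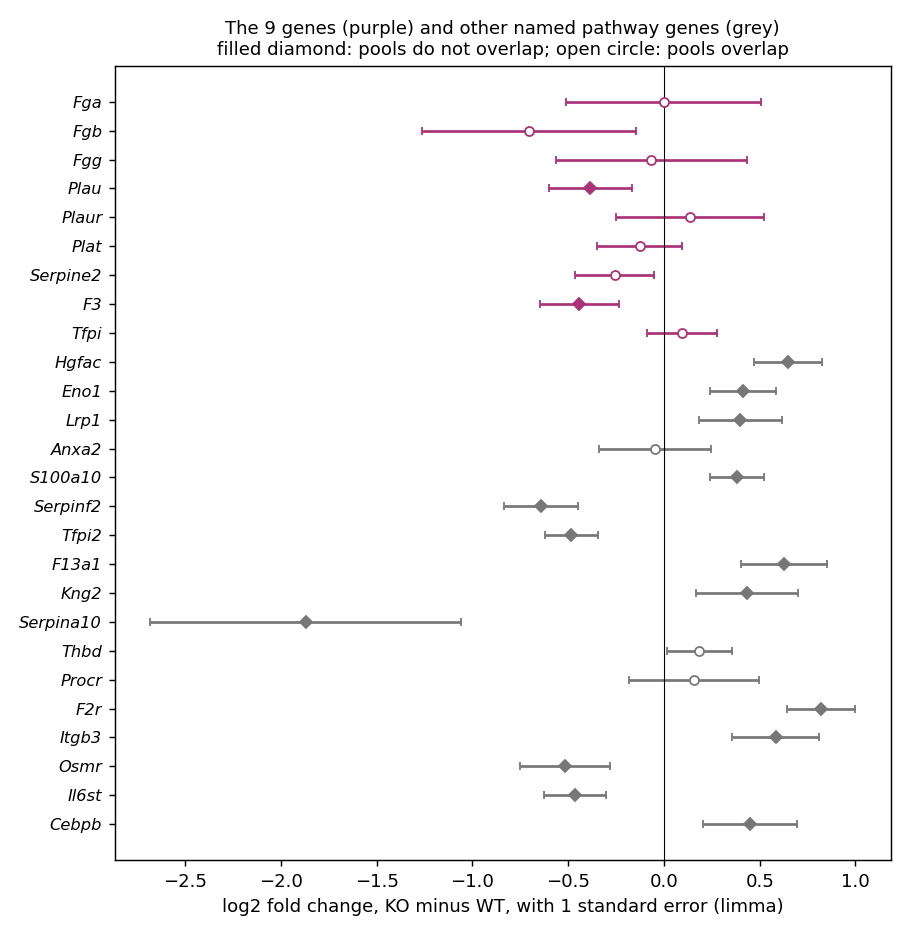
log2 fold change (KO minus WT) with 1 standard error from limma, for the 9 genes (purple) and other named genes of the lists (grey), with filled diamonds where the pools did not overlap. Plau and F3 are the filled purple points, both below 0, and F2r at 0.82 is the highest filled grey point.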

How the data were processed

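RNA-sequencing data of 4 libraries were used. Per the labels, poly-A mRNA was selected, random hexamers primed the first strand, and no step that marks strand is named. The authors deposited FPKM per gene, and the submitters' processing notes name HISAT2 2.0.5 and GRCm38.p6. The counting tool is not given in the sources used here. Of 53706 genes shared with GENCODE M21, 97.1% had identical coordinates, including all 9 described here.

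Multiplied by gene length, 100% of nonzero FPKM values were whole multiples of what 1 read is worth (tolerance 0.01 read), so reads per gene were recovered, and the totals behind the FPKM were proportional to median-of-ratios size factors. These reads were used for depth and for voom. Pools of a group differed by more than sampling noise (chi-square per gene 31.5 in WT and 24.5 in KO, with medians of 3.48 and 2.34).

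log2(FPKM + 0.5) of genes averaging 0.5 FPKM or more was fitted with limma 3.58.1 (R 4.3.3, eBayes with trend, no covariate, two-sided), with Benjamini-Hochberg adjustment over 15414 genes and a threshold of 0.05. Such fold changes understate changes of low genes. The fits were tested on simulated data. An exact permutation test of 2 against 2 pools cannot reach the threshold. Python 3.11.15 with pandas 2.3.3 was used otherwise.

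The genes, lists and rules were chosen with earlier results of these data known. Named beside the 9 were Plg, Serpinf2, Thbd, Procr, F2r, Anxa2, S100a10 and, per list, up to 3 genes that averaged 1 FPKM or more, whose pools did not overlap and whose fold changes were the largest. Of the marker lists used, the gene with the highest level and those at 0 were named. Other named markers, F8 and Lrp2 were chosen after their values were seen. Alternatives were other pseudocounts, filters and scalings, the replicate block, voom weights and leaving out each pool. A gene of the lists is not reported here.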

Additional observations from a re-analysis of the deposited data

How the results depend on the processing

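With limma on the 4 pools, 0 genes of 15414 passed an adjusted p of 0.05, and the number was also 0 under every alternative with an adjusted p, while an unadjusted p under 0.05 gave 974, with 1538 when no genes were filtered and 687 to 1720 with a pool left out. The 8 alternatives that kept all pools included a pseudocount of 0.1 or 1 and a low-value filter of 1 or none. The others were quantile normalization, upper-quartile scaling, the replicate block and voom weights. Under these 8 the 26 tested genes named by rule kept their direction and stayed above the threshold in 208 of 208 cases. F8 and Lrp2, named later, were not followed. The filters and the block leave a log2 fold change as it is, so direction could not change under them. Staying above the threshold follows from 0 genes passing under any of the 8. The limma adjusted p of the 9 genes was at least 0.776 there and at least 0.333 with a pool left out. Leaving out each pool in turn fits the lone pool as if it varied like the other group. The log2 fold change then ranged from -0.71 to 0.71 for Fga, -1.54 to 0.13 for Fgb, -0.76 to 0.63 for Fgg, -0.30 to 0.58 for Plaur, -0.42 to 0.17 for Plat, -0.044 to 0.23 for Tfpi, -0.42 to 0.32 for Anxa2 and -0.30 to 0.62 for Procr, and these 8 genes were the ones that changed sign. Among the main genes, an unadjusted p under 0.05 was seen in such fits for Fgb without KO replicate 1 (limma unadjusted p = 0.00099, adjusted p = 0.913). It was also seen without WT replicate 1 for F3 (limma unadjusted p = 0.0081, adjusted p = 0.333) and for Plat (limma unadjusted p = 0.041, adjusted p = 0.433). When genes had to average 1 FPKM, the median of the clotting factors moved from -0.050 to 0.19 and that of the thrombin receptors from 0.0053 to 0.41, as fewer genes were left. The pools share replicate numbers only, with a correlation of -0.0017 across genes between the deviations of same-numbered pools. With the replicate block 0 genes passed, 932 had an unadjusted p under 0.05, and no call changed. The use of transcript and coding lengths for ratios and for the order of levels, and of marker sums without the highest marker, was chosen after seeing the data. Per transcript length the Fga to Fgb ratio was 11.4 and 8.05 in WT and 14.3 and 18.8 in KO. Depth limits Plg and Il6, where a few reads were found.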
